A study of Mus musculus with 15 samples.

Results

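The response of CT26 cells to loss of Prmt1 was set beside their response to inhibition of the enzyme. CT26 is a mouse colon carcinoma line. For each gene, the log2 change in cells with the Prmt1 hairpin (shPrmt1 against shControl) was compared with the log2 change in cells given an inhibitor (the mean of the MS023 and GSK3368715 libraries against vehicle), and the inhibitor change was subtracted from the knockdown change. A gene entered when 3 or more libraries of each experiment held 10 or more normalized counts of it, which left 11471 of the 34432 genes listed. No expression change was used to choose them.

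PRMT1 is the main type I arginine methyltransferase of mammalian cells. It places asymmetric dimethyl marks on arginines of histones, RNA-binding proteins and signalling proteins, and so takes part in transcription, splicing and the DNA damage response. A hairpin against the transcript lowers the protein itself, with any function that does not need catalysis. MS023 and GSK3368715 block catalysis and leave the protein in the cell, and both act on other type I enzymes besides PRMT1.

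The knockdown experiment held 3 shControl and 3 shPrmt1 libraries. The hairpins were in stable puromycin-selected CT26 lines with a DOX-inducible vector, and the shPrmt1 cells had DOX for 3 days. Whether DOX was also given to the shControl cells is not stated in the labels. The inhibitor experiment held 3 libraries each of wild-type CT26 cells with vehicle, MS023 or GSK3368715, both inhibitors at 6 µM for 48 hours. Thus the experiments had separate controls, different times and no common library, and the kind of PRMT1 loss cannot be told apart from the exposure time, the hairpin, puromycin selection or DOX. MS023 and GSK3368715 were compared with the same vehicle libraries.

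Reads on genes numbered 17284091 to 29233738 per library in the knockdown experiment and 40119305 to 93697833 in the inhibitor experiment. The depth of the inhibitor table was brought to that of the knockdown table in an alternative, which called 772 genes with different changes against 765. Mitochondrial transcripts took 1.37% of reads in vehicle 2 and 1.07% in GSK3368715 3, against 1.99% to 2.95% in the other libraries. The shPrmt1 2 library lay farthest from its group mates, with a median absolute log2 difference of 0.21. Of 11 colon epithelial markers 2 passed the filter. Krt18 and Krt20 were present, Epcam was at 0 in every library and Cdh1 did not exceed 2.29 normalized counts. Of 6 T or NK cell markers none passed the filter and Cd3e was at 0 in every library. Of 8 macrophage markers 2 passed. Cd68 had 25.2 to 44.9 normalized counts in the knockdown table and 197 to 273 in the inhibitor table, and Mrc1 had 15.8 to 32.6 and 30.5 to 77.6, whereas C1qa was at 0 in every library and Adgre1 did not exceed 2.19. Neither Cd68 nor Mrc1 was called in either experiment. Normalized counts here and below are on a separate, higher scale in the inhibitor experiment, so they compare only within an experiment. In bulk RNA, fewer expressing cells and less RNA per cell cannot be told apart.

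The hairpin lowered the transcript and the inhibitors did not. Prmt1 (ENSMUSG00000109324, minus strand of chromosome 7 in mm10, bases 44975989 to 44986568) stood at 267 CPM, its reads relative to the total of the library, in shControl cells and at 34.0 CPM in shPrmt1 cells, and 260.0 with vehicle, 253 with MS023 and 261 with GSK3368715. Its change was -3.004 (standard error 0.07) on the log2 scale in the knockdown and -0.04 (standard error 0.05) with the inhibitors. The difference of -2.96 had a 95% interval from -3.13 to -2.79 (adjusted p = 3.3e-12, limma, Benjamini-Hochberg over all genes tested). Of the 11 measured genes of the PRMT family and its partners, the knockdown lowered only Prmt1 and raised none, and the inhibitors raised 1 and lowered 3. Over all genes tested, 14.7% were called in the knockdown and 27.0% with the inhibitors.

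Most genes that responded to both perturbations responded in the same direction. The knockdown changed 1683 genes (14.7% of those tested), 861 up (7.51%) and 822 down (7.17%), and the inhibitors together changed 3099 genes (27.0%), 1493 up (13.0%) and 1606 down (14.0%). Both changed 899 genes, of which 861 (95.8%; 7.51% of all genes tested) moved in the same direction, 436 up and 425 down, and 38 (4.23%; 0.331% of all genes tested) moved in opposite directions. The genes that agreed made up 51.2% of those called in the knockdown and 27.8% of those called with the inhibitors. When every library was rescaled to the same total, 537 genes agreed upward and 325 downward, and the knockdown calls split into 1082 up and 665 down. With every library rescaled to the same upper quartile, the inhibitor calls split into 1551 up and 998 down. Single control libraries weighed on these numbers. Without shControl 1, 652 knockdown genes, 401 genes that agreed and 11 that opposed each other were called. The corresponding numbers were 883, 507 and 17 without shControl 2, and 723, 439 and 12 without shControl 3. Without shPrmt1 3, 1071 knockdown genes and 25 opposite genes were called, without shPrmt1 2 there were 60 opposite genes, and without vehicle 3 there were 1976 inhibitor genes and 25 opposite genes. None of the 861 genes that agreed and none of the 38 that did not turned into the other class under any of these alternatives.

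**Figure D1:**
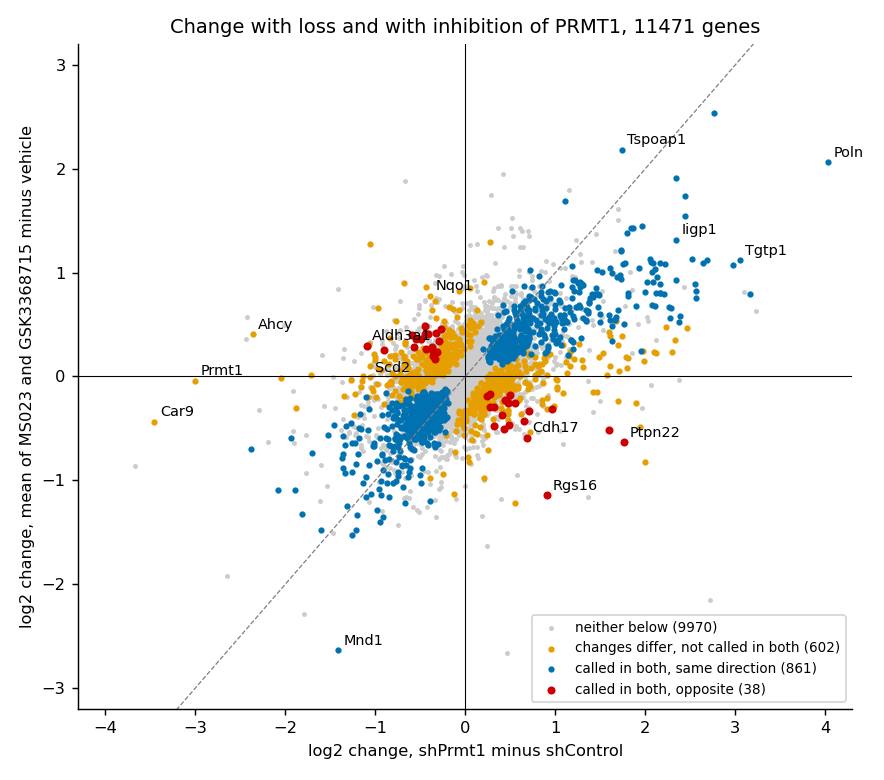
Log2 change of 11471 genes in shPrmt1 against shControl cells (horizontal axis) and in cells with MS023 or GSK3368715 against vehicle (vertical axis), 1 point per gene, with the dashed line marking equal changes. The 861 genes called in both experiments in the same direction lie in the lower left and upper right, the increases mostly below the dashed line, and the 38 genes called in opposite directions lie in the upper left and lower right.

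The difference between the changes was itself tested. It was called for 765 genes (6.67% of those tested), with the knockdown above the inhibitors for 427 (3.72%) and below for 338 (2.95%). After rescaling to the same upper quartile these numbers were 234 and 365, so the side on which more genes lay depended on the scaling, with the median difference over all genes moving from 0.01 to -0.05. Before adjustment 2519 genes had a p under 0.05. The change was larger in the knockdown for 545 of the 765 genes, larger with the inhibitors for 182 and opposite for 38. For 784 genes the change was called in the knockdown and not with the inhibitors, but the 2 changes were shown to differ for only 320 of these. Likewise 2200 genes were called only with the inhibitors, and for 198 of them the difference was called. Without shControl 1, shControl 3 or vehicle 3, the number of genes with a called difference was 479, 472 and 449.

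Among the genes called in both in the same direction, the measured change was usually larger in the knockdown. The median increase of the 436 shared increases was 0.68 in the knockdown, 0.52 with MS023 and 0.39 with GSK3368715. The increase was larger in the knockdown for 388 of these genes, and the difference was called for 92 of them, against 1 gene with the larger increase under the inhibitors. The 425 shared decreases had medians of -0.50 in the knockdown and -0.40 with the inhibitors. Of these, 300 fell further in the knockdown, 27 with a called difference, against 5 that were called as falling further with the inhibitors. For 478 of the 861 genes (55.5%) the 95% interval of the difference lay within 0.5 of 0, for 125 the difference was called, and for 269 neither held. These genes were chosen on both changes, so their sizes are a description. The median standard error over all genes was 0.10 in the knockdown and 0.07 with the inhibitors. A change therefore usually had to be larger to be called in the knockdown, which tilts the comparison of sizes. The part of this choice in the sizes was not tested.

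Antiviral effectors and interferon-inducible GTPases rose in both experiments, and many of them further in the knockdown. Interferons signal through JAK kinases to STAT and IRF factors, which bind interferon-stimulated response elements and switch on antiviral genes. The list of interferon-inducible GTPases, proteins that attack membranes around intracellular pathogens, had 16 measured genes. Of these, 15 rose in the knockdown and 16 with the inhibitors, against 7.51% and 13.0% of all genes, and none fell. The difference was called for 10 with the larger increase in the knockdown, a direction called for 3.72% of all genes. Their median change was 1.83 in the knockdown and 0.98 with the inhibitors, against -0.0035 and -0.0044 over all genes tested. Of 37 antiviral effectors 32 rose and 1 fell in the knockdown, 32 rose and 2 fell with the inhibitors, and the knockdown change was above the inhibitor change in all 16 with a called difference. The genes upstream of them, 19 interferon receptors, JAK-STAT and IRF factors, did not show this order. Of these, 6 rose in the knockdown and 11 with the inhibitors, none fell, and the median changes were 0.15 and 0.24. The difference was called for 4, with the knockdown above in 3, and it lay above 0 for 8 of the 19 genes. Irf7, an interferon regulatory factor, rose by 1.80 and 0.80 (difference 1.00, adjusted p = 0.0034, limma), and Usp18, which restrains interferon receptor signalling, by 1.63 and 0.48 (difference 1.15, adjusted p = 0.0014).

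The element that STAT and IRF factors bind was searched for in the promoters. RefSeq promoter windows (GRCm38.p6, 250 bases before to 50 after the annotated start) were matched by symbol to 8825 of the 11471 genes and searched on both strands for an interferon-stimulated response element, written as GAAA, any 2 bases and again GAAA. This motif stood in 3.44% of all RefSeq promoter windows and in the promoters of 3.92% of the 8825 genes, of 17.3% of the 324 matched genes raised by both perturbations, and of 4.27% of the 328 matched genes lowered by both. It stood in 10 of the 11 matched GTPase genes and in 12 of the 30 matched antiviral effectors. Sequences of 3 GTPase genes are shown because they rose in both experiments, and those of Edn1 and Car9 because their changes were seen with the inhibitors or in the knockdown alone. Capitals mark the matches to the motif, which reads TTTC, any 2 bases and TTTC where it lies on the other strand. The windows are chr3:142620413-142620712 on the plus strand for Gbp2, chr3:142594597-142594896 on the plus strand for Gbp2b, chr11:48992197-48992496 on the minus strand for Tgtp1, chr13:42301226-42301525 on the plus strand for Edn1 and chr4:43506776-43507075 on the plus strand for Car9, each printed 5′ to 3′ in the direction of the gene.
Gbp2: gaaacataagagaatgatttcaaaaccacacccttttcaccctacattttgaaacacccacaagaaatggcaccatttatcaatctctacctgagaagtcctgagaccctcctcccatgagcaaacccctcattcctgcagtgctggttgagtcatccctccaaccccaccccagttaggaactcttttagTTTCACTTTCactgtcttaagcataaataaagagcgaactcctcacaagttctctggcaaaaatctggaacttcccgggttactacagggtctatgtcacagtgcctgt
Gbp2b: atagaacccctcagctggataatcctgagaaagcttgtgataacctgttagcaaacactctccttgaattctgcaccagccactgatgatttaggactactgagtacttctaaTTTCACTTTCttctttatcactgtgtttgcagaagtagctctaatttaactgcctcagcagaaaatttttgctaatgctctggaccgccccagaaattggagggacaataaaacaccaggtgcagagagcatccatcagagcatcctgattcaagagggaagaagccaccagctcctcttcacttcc
Tgtp1: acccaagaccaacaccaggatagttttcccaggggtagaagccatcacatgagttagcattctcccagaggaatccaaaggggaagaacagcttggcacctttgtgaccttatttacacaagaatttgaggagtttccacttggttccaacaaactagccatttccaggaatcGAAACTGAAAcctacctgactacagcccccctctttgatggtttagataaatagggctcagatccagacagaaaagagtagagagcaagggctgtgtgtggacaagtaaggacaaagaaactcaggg
Edn1: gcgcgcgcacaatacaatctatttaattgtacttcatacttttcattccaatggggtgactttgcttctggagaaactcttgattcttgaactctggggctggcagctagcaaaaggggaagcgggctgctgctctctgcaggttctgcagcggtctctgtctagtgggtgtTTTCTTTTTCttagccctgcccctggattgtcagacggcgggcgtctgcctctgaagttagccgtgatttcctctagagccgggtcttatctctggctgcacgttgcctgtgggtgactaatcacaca
Car9: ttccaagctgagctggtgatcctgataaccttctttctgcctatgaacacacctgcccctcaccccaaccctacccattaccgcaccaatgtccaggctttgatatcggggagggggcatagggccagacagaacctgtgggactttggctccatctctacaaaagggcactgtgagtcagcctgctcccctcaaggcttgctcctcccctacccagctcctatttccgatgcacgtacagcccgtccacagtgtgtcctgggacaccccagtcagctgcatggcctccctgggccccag

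The match begins at position -59 from the annotated start in Gbp2, at -137 in Gbp2b and at -77 in Tgtp1. Edn1 holds the motif at -78 although it was not among the genes that rose, and Car9 does not hold it in this window. A match is a description of the letters and no evidence of binding.

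The 3 GTPase genes shown differed in how far the perturbations agreed. Gbp2 (chromosome 3, 142620602 to 142638008) had 148, 135 and 149 normalized counts in shControl and 492, 571 and 511 in shPrmt1 libraries. It had 3971, 2627 and 3379 with vehicle, 9099, 9356 and 9791 with MS023, and 7800.4, 9981 and 7367 with GSK3368715. The treated libraries lay above their controls in both experiments without overlap. Its change was 1.86 in the knockdown and 1.43 with the inhibitors, and the difference of 0.43 (95% interval 0.06 to 0.79) was not called after adjustment (adjusted p = 0.16, limma). Gbp2b likewise changed by 1.80 and 1.38 (adjusted p = 0.25 for the difference). Tgtp1, in contrast, had 14.97, 20.2 and 17.7 normalized counts in shControl and 121, 169.7 and 170.5 in shPrmt1 libraries, against 818, 666 and 727 with vehicle, 1686, 1512 and 1721 with MS023, and 1723, 1605 and 1367 with GSK3368715. Here too no library overlapped its controls, but the knockdown change of 3.05 exceeded the inhibitor change of 1.12 by 1.93 (95% interval 1.52 to 2.34, adjusted p = 3.9e-05, limma). Tgtp1 shares reads with its near-identical copy Tgtp2, and the sum of both changed by 2.29 and 0.98.

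Other interferon genes differed in the same way. Ifi44, an antiviral effector, rose by 2.39 in the knockdown and 0.58 with the inhibitors (difference 1.80, adjusted p = 0.00014, limma), and Trim30d by 2.55 and 0.89. Mx1, which blocks viral ribonucleoproteins, rose by 1.96 and 1.44, and Ifit3, another antiviral effector, by 1.19 and 1.06, neither with a called difference. Ifit3 has a near-identical copy, Ifit3b, and the sum of both changed by 1.06 and 1.08. Mx1 had few reads in shControl cells (0.31 CPM against 1.39 in shPrmt1 cells), so the size of its knockdown change is uncertain. Stat2 had 599, 654 and 666 normalized counts in shControl and 885, 1009.7 and 1012 in shPrmt1 libraries, 9914, 7736 and 9369 with vehicle, 14243, 14025 and 14290.0 with MS023, and 14189.8, 13615 and 12560.5 with GSK3368715. It rose by 0.60 in the knockdown and 0.62 with the inhibitors, a difference of -0.03 with a 95% interval from -0.27 to 0.21. In the genes for antigen processing and presentation, 13 of 20 rose in the knockdown and 17 with the inhibitors, against 7.51% and 13.0% of all genes. The difference was called for 3 of the 20 and for 6.67% of all genes. The knockdown was above for 2 of the 3 and below for 1. Psmb8, a subunit of the immunoproteasome, had the largest difference there (2.16 against 0.80, adjusted p = 0.00052 for the difference, limma), and Tap1, of the peptide transporter, rose by 1.29 and 0.37 (adjusted p = 0.0021). Psmb10, another immunoproteasome subunit and named after its values were seen, went the other way, with -0.18 (adjusted p = 0.30) in the knockdown and 0.45 with the inhibitors (adjusted p = 0.0029 for the difference). Among 16 nucleic acid sensors and their partners, 7 rose and 1 fell in the knockdown and 9 rose and 1 fell with the inhibitors. The shares that rose over all genes were again 7.51% and 13.0%. Zbp1, a sensor of Z-form nucleic acid, rose by 2.06 and 1.11 and the RNA sensor Tlr3 by 0.84 and 0.59, and neither difference was called.

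A single antiviral effector went the other way. Oas3, a 2′-5′ oligoadenylate synthetase named here after its values were seen, rose by 0.56 in the knockdown and fell by 0.25 with the inhibitors (difference 0.81, adjusted p = 0.0012, limma). Its mean was 895 ± 29.3 (SD, n = 3) normalized counts in shControl and 1320 ± 138 (SD, n = 3) in shPrmt1 cells. It was 13809 ± 1746 (SD, n = 3) with vehicle, 10625 ± 890.2 (SD, n = 3) with MS023 and 12505 ± 633 (SD, n = 3) with GSK3368715, and the inhibitor and vehicle libraries overlapped. Its relative Oas2 rose in both, by 2.16 and 1.09.

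The control cells of the experiments did not start at the same interferon level. The median GTPase gene had 4.36 CPM in shControl and 15.96 in shPrmt1 cells, against 33.7 with vehicle, 60.6 with MS023 and 58.2 with GSK3368715. For the antiviral effectors these medians were 20.5, 39.8, 101.5, 143 and 146. Hence the vehicle-treated wild-type cells were above the knockdown cells, and the smaller log2 changes with the inhibitors were measured from a higher start. The experiments were normalized separately, and the part of the starting level in the different sizes of change was not tested. Over the 30 alternatives that set no minimum on the size of a change, the difference was called for 9 to 12 GTPase genes, with the knockdown above in all of them. Of the called differences, 7 reached an absolute log2 value of at least 1.

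**Figure D2:**
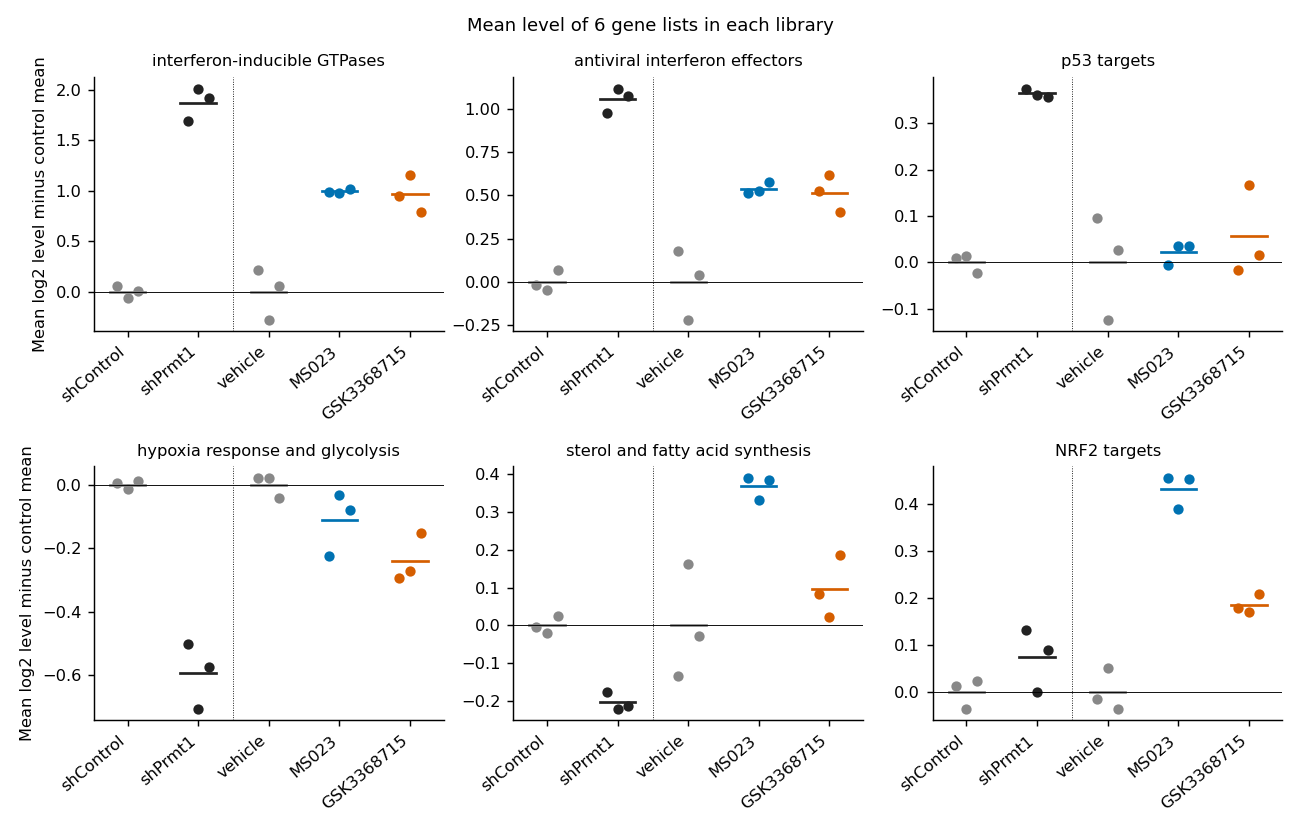
Mean level of 6 gene lists in each library, as mean log2(normalized count + 1) minus the mean of the controls of the same experiment, with 1 point per library and a line at the group mean. The interferon lists are raised in all treated libraries of both experiments, the sterol and NRF2 lists are higher with MS023 than with GSK3368715, and the hypoxia list is lowest in the shPrmt1 libraries.

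Outside the interferon lists, the largest shared increases included genes of other kinds. Tspoap1 (chromosome 11, 87760541 to 87785928), which encodes a binding partner of the mitochondrial translocator protein, had 43.1, 32.4 and 22.1 normalized counts in shControl and 131, 69.1 and 136 in shPrmt1 libraries. It had 115, 163 and 176 with vehicle, 1023, 922 and 898 with MS023, and 763, 409 and 370.3 with GSK3368715. All treated libraries were above their controls, the MS023 libraries highest. Its change was 1.74 in the knockdown and 2.18 with the inhibitors, a difference of -0.44 with a 95% interval from -1.30 to 0.41. Bmp6, a bone morphogenetic protein ligand, rose by 2.34 and 1.91. It had few reads in the controls, with 0.27 CPM in shControl against 1.62 in shPrmt1 cells, and 0.35 with vehicle. The sizes of its changes are therefore uncertain. Id1 and Id3, which are classic targets of that pathway, rose by 0.64 and 0.56 and by 0.62 and 0.65, with differences of 0.08 (95% interval -0.25 to 0.41) and -0.03 (95% interval -0.37 to 0.31). Without shControl 1 or shControl 2 the knockdown call of Id3 was lost (adjusted p = 0.0508 and 0.0585, limma). Poln, a translesion DNA polymerase, rose by 4.03 and 2.06, and Gsta1, a glutathione transferase whose reads are shared with 3 near-identical copies, by 2.44 and 1.54.

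The shared decreases included Mnd1 and Brca2, genes of DNA recombination. Mnd1 (chromosome 3, 84087933 to 84155786), a cofactor of meiotic strand exchange, had 245, 219 and 226 normalized counts in shControl and 98.3, 84.8 and 75.5 in shPrmt1 libraries. It had 798, 775 and 729.6 with vehicle, 66.2, 78.8 and 75.6 with MS023, and 197, 197 and 219 with GSK3368715. The groups did not overlap, and Mnd1 was unlike most shared genes in that the inhibitors moved it further (-2.64 against -1.41, difference 1.23, adjusted p = 0.00031, limma). The decrease with MS023 of -3.37 was also larger than that with GSK3368715 of -1.91 (difference -1.46, adjusted p = 0.00064), and with GSK3368715 alone the difference from the knockdown was not called (0.50, adjusted p = 0.11). Brca2, a gene of homologous recombination, fell by 0.58 in the knockdown and 0.54 with the inhibitors, a difference of -0.04 with a 95% interval from -0.30 to 0.22.

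Of 5 measured enzymes that act on arginine residues or on free dimethylarginine, 1 rose and 1 fell in both experiments. Over all genes, 7.51% were called in both in the same direction. The median change of the 5 was -0.44 in the knockdown and 0.26 with the inhibitors. The inhibitor median ran from -0.38 to 0.33 over the alternatives without a minimum change, so its sign was not stable. Padi2 (chromosome 4, 140906344 to 140952586) encodes an arginine deiminase, which turns protein arginine into citrulline. It had 417, 257 and 366 normalized counts in shControl and 125, 66.7 and 89.8 in shPrmt1 libraries. It had 803, 648 and 715 with vehicle, 444, 328 and 249.9 with MS023, and 459.7, 250.3 and 344 with GSK3368715. All treated libraries were below their controls. Padi2 changed by -1.89 in the knockdown and -1.10 with the inhibitors (difference -0.80, 95% interval -1.54 to -0.06, adjusted p = 0.19, limma). Ddah1, which hydrolyses free asymmetric dimethylarginine, rose by 0.68 and 0.34. Among 50 splicing regulators with RGG or RS domains, a family rich in PRMT1 substrates, 1 rose and 3 fell in the knockdown and 3 rose and 4 fell with the inhibitors, shares below the 14.7% and 27.0% of all genes. Of these, Rbmx fell by 0.50 and 0.57 and Chtop, an RGG protein, rose by 0.20 and 0.27, though the knockdown call of Chtop was lost without any 1 of shControl 1, 2 or 3, shPrmt1 1 or shPrmt1 3 (adjusted p up to 0.17, limma). Of the one-carbon enzymes of mitochondria, Mthfd1l fell by 0.43 in both, with a difference of 0.01 (95% interval -0.15 to 0.17), and Shmt2 by 0.37 and 0.35. The knockdown call of Shmt2 was lost without any 1 of the shControl libraries (adjusted p up to 0.087, limma).

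**Figure D3:**
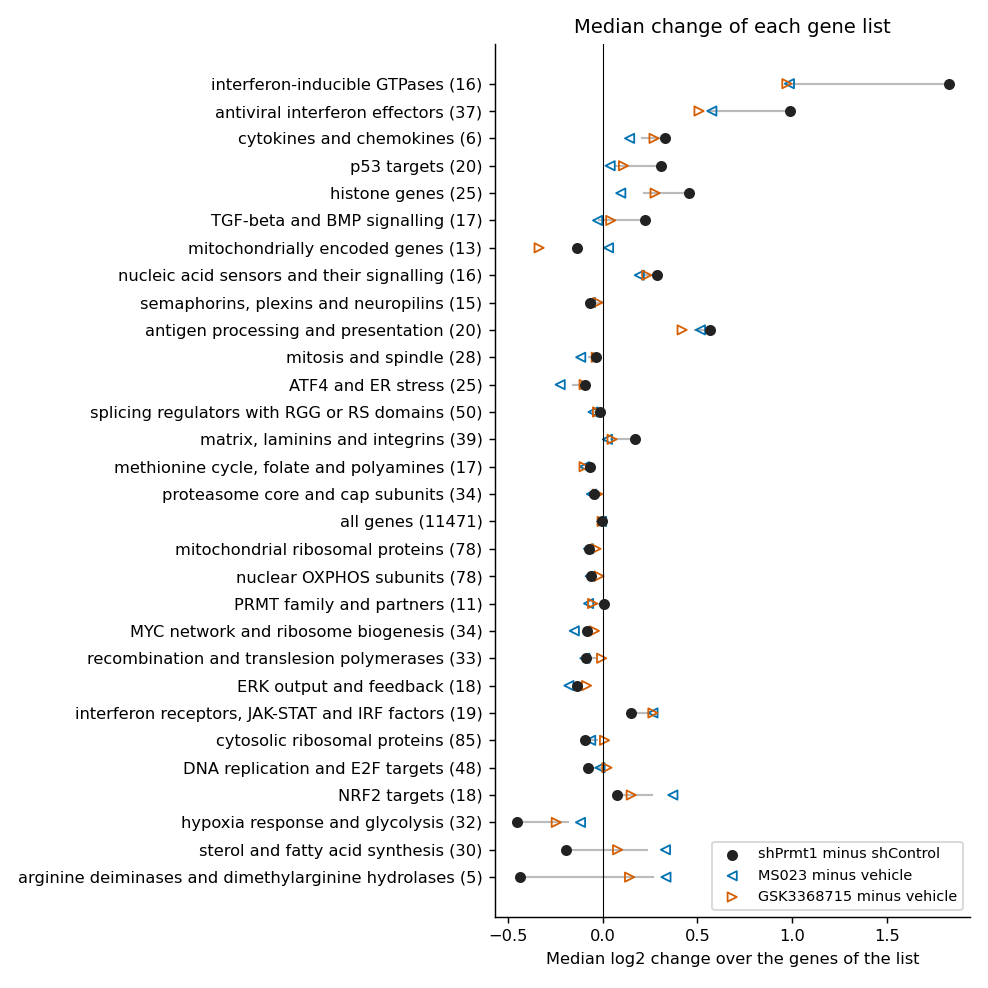
Median log2 change of each gene list (number of genes in parentheses) in shPrmt1 against shControl cells (filled circles) and with MS023 or GSK3368715 against vehicle (open triangles). The GTPase and antiviral lists lie farthest to the right, the knockdown beyond the inhibitors, the interferon receptor list lies farther right with the inhibitors, and the sterol list lies below 0 in the knockdown and above 0 with the inhibitors.

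Part of the genes of sterol and fatty acid synthesis fell in the knockdown, and part rose with the inhibitors, mainly with MS023. The pathway turns acetyl-CoA into cholesterol through mevalonate and into fatty acids, and its genes are jointly induced by the SREBP factors when sterols are low. Of 30 measured genes, 11 fell and 1 rose in the knockdown, whereas 14 rose and none fell with the inhibitors. Over all genes, 7.17% fell in the knockdown and 13.0% rose with the inhibitors. The median change was -0.19 in the knockdown and 0.23 with the inhibitors. The knockdown change was called as below the inhibitor change for 12 genes, a direction called for 2.95% of all genes. The 5 genes called in opposite directions were Mvd, Fdft1, Pmvk, Nsdhl and Fdps, all of them enzymes of the path from mevalonate to cholesterol, and 1 gene, Hsd17b7, rose in both. Of the list's members, Pmvk, Fdps and Insig1 are named after their values were seen.

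Fdft1 (chromosome 14, 63145150 to 63179578), the synthase of squalene, had 1971, 1899 and 1887 normalized counts in shControl and 1520.4, 1583 and 1577 in shPrmt1 libraries. It had 4414, 4385 and 4414 with vehicle, 6472, 6064 and 6379 with MS023, and 4804, 5026 and 5016 with GSK3368715. The knockdown libraries were all below their controls, and the inhibitor libraries were all above vehicle. Its change was -0.30 (standard error 0.06) in the knockdown and 0.34 (standard error 0.04) with the inhibitors (difference -0.64, 95% interval -0.78 to -0.51, adjusted p = 3.9e-05, limma). Mvd, which forms isopentenyl pyrophosphate, had 697, 705 and 823 normalized counts in shControl and 604, 476 and 554 in shPrmt1 libraries. It had 1248, 1644 and 1356 with vehicle, 2245, 2007 and 2368 with MS023, and 1586, 1489 and 1675 with GSK3368715, so that the MS023 libraries stood above vehicle and the GSK3368715 libraries overlapped it. Its changes were -0.45 and 0.41 (difference -0.85, adjusted p = 0.0026, limma). Nsdhl, a sterol dehydrogenase on the X chromosome, changed by -0.32 and 0.42 (difference -0.74, adjusted p = 0.0013, limma).

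These counts moved when single libraries were left out. The number of sterol genes that fell was 3 without shControl 1, 7 without shControl 2 and 5 without shControl 3, and 15 without shPrmt1 2. The number that rose with the inhibitors was 9 without vehicle 1 or vehicle 3 and 17 without vehicle 2, a library in which the mean level of the list was 0.16 above the vehicle mean. The knockdown call of Fdft1 was lost without any 1 of the shControl libraries (adjusted p = 0.0528 to 0.0867, limma), that of Mvd without any of these or shPrmt1 3 (up to 0.123), and that of Nsdhl without shControl 1 or shControl 3 (up to 0.0672). The difference between the changes was called for all 3 genes in the 30 alternatives without a minimum change, and for 8 to 20 genes of the list. None of the 3 differences reached an absolute log2 value of 1, and 1 called difference of the list did.

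The compounds were also set against each other at the same dose and time. MS023 changed 29.7% of all genes and raised 19 of the 30 sterol genes, and GSK3368715 changed 10.4% and raised 1, with median changes of 0.33 and 0.08. A direct comparison of MS023 with GSK3368715 was called for 67 of all genes (0.584%) and for 3 sterol genes. These were Fdft1 (0.35, adjusted p = 0.017, limma), Fdps (0.42, adjusted p = 0.0203) and Insig1 (0.42, adjusted p = 0.0203), which holds the SREBP complex in the endoplasmic reticulum. The median difference between the compounds was 0.26 over the list. Of the 16 GTPase genes, both compounds raised 16, with medians of 0.99 and 0.97 and a median difference of 0.05 between the compounds. With GSK3368715 alone, the difference from the knockdown was still called for 8 sterol genes, and with MS023 alone for 17.

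**Figure D4:**
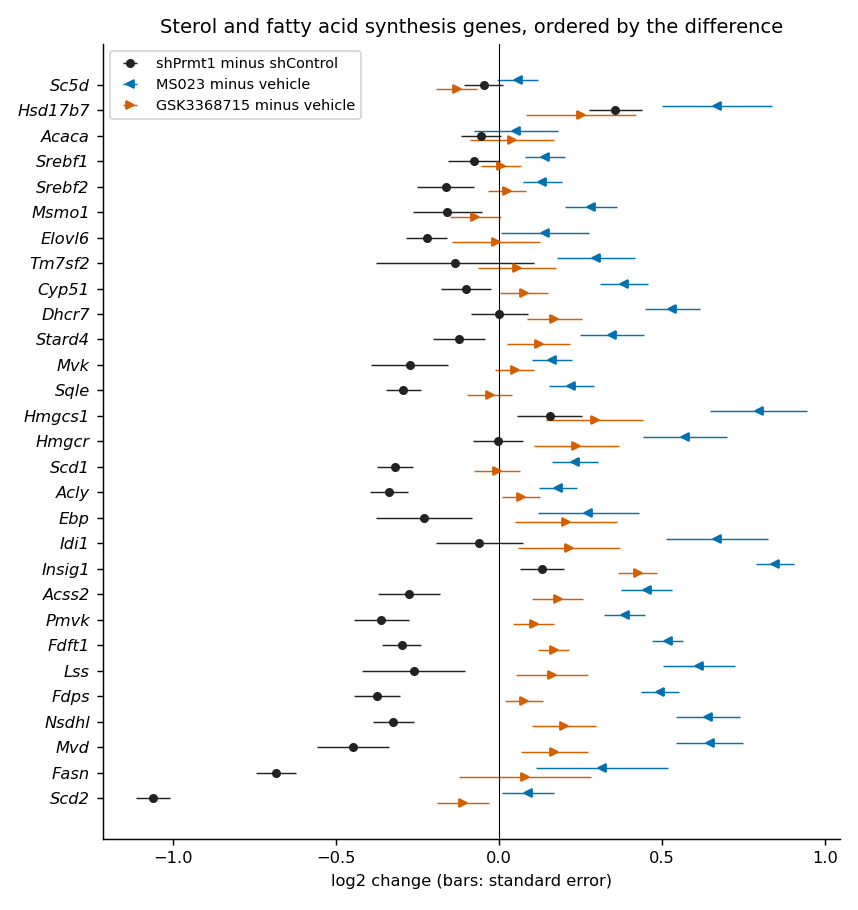
Log2 change of genes of sterol and fatty acid synthesis with the standard error, in shPrmt1 against shControl cells (circles) and with MS023 or GSK3368715 against vehicle (triangles), ordered by the difference between knockdown and inhibitors. MS023 lies to the right of the knockdown for the genes drawn, GSK3368715 lies between them for most, and Scd2 and Fasn at the bottom fell in the knockdown.

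Of the genes of the list, Scd2 and Fasn, which act in fatty acid synthesis, had the largest differences. Scd2 (chromosome 19, 44293674 to 44306864), a stearoyl-CoA desaturase, had 67648, 65105 and 67013 normalized counts in shControl and 31383, 33296 and 31136 in shPrmt1 libraries. It had 189032, 217530.1 and 206034 with vehicle, 200978, 222693 and 227997 with MS023, and 178244, 183995 and 205449 with GSK3368715. The shPrmt1 libraries were far below their controls, and the inhibitor libraries overlapped vehicle. The change was -1.06 in the knockdown and -0.01 with the inhibitors (difference -1.05, 95% interval -1.25 to -0.85, adjusted p = 2e-05, limma). Fasn, the fatty acid synthase, changed by -0.68 and 0.20 (adjusted p = 0.032 for the difference, limma). That call was lost in 13 of 30 alternatives, among them the fits without any 1 of shControl 1, 2 or 3, shPrmt1 2, vehicle 1 or vehicle 3 (adjusted p up to 0.0996). Of the promoters of the list, 20 of 22 held the letters CCAAT, against 44.0% of the 8825 matched genes, and 1 held TCACNCCAC, a form of the sterol regulatory element, against 1.3%.

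Beside the sterol genes, the 38 genes called in opposite directions included growth factor, adhesion and signalling genes. The change was on the same side with both compounds for all 38, and both compounds were called for 12. The groups did not overlap in either experiment for 25 of the 38, where 12.7% of all genes showed no overlap in both. Since the genes were chosen on both changes, these are descriptions. Of those named here, Rgs16 (chromosome 1, 153740349 to 153745468), a regulator that turns off G protein signalling, had the largest contrast without overlap. It had 31.7, 34.6 and 50.9 normalized counts in shControl and 89.2, 70.3 and 61.2 in shPrmt1 libraries. It had 110.0, 135 and 123 with vehicle, 38.1, 37.2 and 59.1 with MS023, and 67.1, 60.2 and 80.3 with GSK3368715. It rose by 0.91 in the knockdown and fell by 1.14 with the inhibitors, a difference of 2.05 (standard error 0.31, adjusted p = 0.001, limma). The knockdown call was lost without any 1 of shControl 1, shControl 2, shPrmt1 1 or shPrmt1 3 (adjusted p = 0.0507 to 0.133, limma).

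Ereg, the EGF receptor ligand epiregulin, had 1746, 1969 and 1643 normalized counts in shControl and 2299, 2934 and 2302 in shPrmt1 libraries. It had 3881, 4517 and 3991 with vehicle, 2644, 2784 and 2515 with MS023, and 3388, 3184 and 3461 with GSK3368715. The shPrmt1 libraries were above their controls and the inhibitor libraries below vehicle, MS023 lowest. The changes were 0.49 and -0.47, and the knockdown call was lost without shControl 1 or shControl 3 (adjusted p up to 0.0956, limma). Ccn1, a matricellular protein induced by growth factors and TGF-beta, had 1621, 1576 and 1559 normalized counts in shControl and 2002, 1996 and 1926 in shPrmt1 libraries. It had 9415, 9595 and 8802 with vehicle, 6103, 5896 and 5971 with MS023, and 7255, 7788 and 7192 with GSK3368715. It rose by 0.32 in the knockdown (not called without shControl 1 or shControl 3, adjusted p up to 0.0658, limma) and fell by 0.48 with the inhibitors, and MS023 lowered it further than GSK3368715 (difference -0.31, adjusted p = 0.037). Its relative Ccn2 rose by 0.77 in the knockdown and had 0.01 with the inhibitors (difference 0.76, adjusted p = 0.0025, limma). Tmcc3, a membrane protein of the endoplasmic reticulum, had 1056 to 1095 normalized counts in shControl and 1406 to 1455 in shPrmt1 libraries. It had 3315 to 3619.9 with vehicle and 2248 to 2821 with the inhibitors. Its changes of 0.43 and -0.50 were called in every alternative without a minimum change, as were those of Pdpn, the membrane glycoprotein podoplanin (0.71 and -0.33). Cdh17, the liver-intestine cadherin, changed by 0.68 and -0.59, with the knockdown call lost without shControl 2, shControl 3 or shPrmt1 1 (adjusted p up to 0.0846, limma).

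In the reverse direction, Cldn6, Krt18 and Lpar2 fell in the knockdown and rose with the inhibitors. Cldn6, a tight junction claudin, had 2864, 2659.5 and 2928 normalized counts in shControl and 2251, 1685 and 2299.7 in shPrmt1 libraries. It had 6914, 8017 and 7244 with vehicle, 11669, 11466 and 12484 with MS023, and 8662, 8659 and 9821 with GSK3368715. No treated library overlapped its controls, and the MS023 libraries were highest. The changes were -0.45 and 0.49 (difference -0.94, adjusted p = 0.00067, limma). Krt18, a simple epithelial keratin, changed by -0.41 and 0.41, and Lpar2, a receptor for lysophosphatidic acid, by -0.54 and 0.36. The knockdown calls of Cldn6 and Krt18 were lost without any 1 of the shControl libraries (adjusted p up to 0.126 and 0.129, limma), and both calls of Lpar2 were kept in the alternatives without a minimum change. None of the 38 opposite genes had changes of at least 1 in both experiments.

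**Figure D5:**
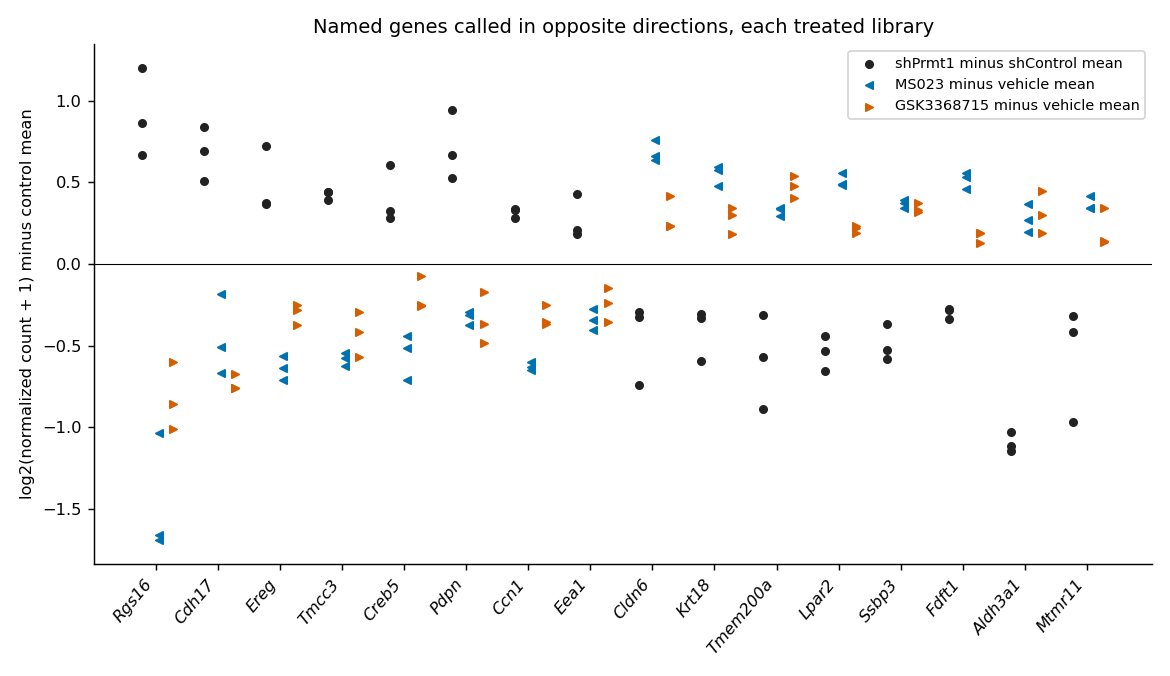
Log2(normalized count + 1) of the 8 genes each way called in opposite directions and chosen for no overlap with their controls, as each treated library minus the mean of its controls, for shPrmt1 (circles), MS023 and GSK3368715 (triangles). By this choice the treated libraries of each gene drawn lie on opposite sides of 0 in the 2 experiments, and opposite genes with an overlap, such as Col1a1 and Mvd, are not drawn.

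Col1a1, a fibrillar collagen chain, was also among the 38. It had 2174, 1853 and 2321 normalized counts in shControl and 4664, 3067 and 4890.2 in shPrmt1 libraries. It had 18109, 19117 and 18403 with vehicle, 10864, 13765 and 14583 with MS023, and 16479, 16589 and 18615 with GSK3368715, so that one GSK3368715 library reached the vehicle range. Its changes were 0.97 and -0.31 (difference 1.28, adjusted p = 0.0012, limma), and the inhibitor call was lost without vehicle 2 or vehicle 3 and with GSK3368715 alone (adjusted p up to 0.527). Of 5 fibroblast markers, Col1a1 and Pdgfra passed the filter. Pdgfra, a receptor for platelet-derived growth factor, had means of 268 normalized counts in shControl and 186 in shPrmt1 cells, and 826 with vehicle, 1091 with MS023 and 1126 with GSK3368715. Its changes of -0.41 and 0.42 were not called (adjusted p = 0.47 and 0.089, limma) and had the opposite signs to those of Col1a1. The 5 markers, of whose sum Col1a1 made up most, summed to 2110.2 to 2734 normalized counts in shControl, 3252 to 5119.9 in shPrmt1, 19085 to 19995 in vehicle, 11854 to 15719 in MS023 and 17493 to 20129 in GSK3368715 libraries. Their part in the result was not tested.

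Genes of the hypoxia response and glycolysis fell in the knockdown, and fewer of them were called as lower with the inhibitors. These genes are targets of HIF-1, which adapts cells to low oxygen. Of 32 measured genes, 24 fell and none rose in the knockdown, 12 fell and 1 rose with the inhibitors, and 10 fell in both. Over all genes, 7.17% fell in the knockdown and 14.0% with the inhibitors. The median change was -0.45 in the knockdown and -0.19 with the inhibitors. The difference was called for 9, all lower in the knockdown, a direction called for 2.95% of all genes. Without shControl 1 or shControl 3 the number that fell in the knockdown was 15 and 16, and the alternatives gave 4 to 13 that fell with the inhibitors. Car9, a cell surface carbonic anhydrase and standard marker of hypoxia, had 114, 82.1 and 77.4 normalized counts in shControl and 19.4, 2.42 and 7.15 in shPrmt1 libraries. It had 1689, 1255 and 1485 with vehicle, 787, 1433 and 1243 with MS023, and 869, 1115 and 1178 with GSK3368715. The shPrmt1 libraries were all below their controls, while MS023 2 lay within the vehicle range. Its change was -3.46 in the knockdown and -0.44 with the inhibitors (difference -3.02, 95% interval -4.24 to -1.79, adjusted p = 0.0052, limma). The lowest shPrmt1 library rested on few reads, and the knockdown change ranged from -4.11 to -2.82 over the alternatives.

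Other genes of the list kept to the same order. Bnip3, a mitophagy receptor, had 2684, 2751 and 2601 normalized counts in shControl and 1053, 1252 and 1041 in shPrmt1 libraries. It had 12704, 15593 and 12384 with vehicle, 8946, 11414 and 10641 with MS023, and 8302, 10172 and 10289.6 with GSK3368715, with no overlap in either experiment. It fell by 1.27 in the knockdown and 0.45 with the inhibitors (difference -0.82, adjusted p = 0.0033, limma). Pdk1, which keeps pyruvate out of mitochondria, fell by 0.87 and 0.51 and the mitochondrial protein gene Higd1a by 0.63 and 0.47, and neither difference was called. Ankrd37 changed by -1.72 and 0.02 and the enolase gene Eno2 by -1.16 and -0.10, with called differences of -1.74 and -1.05 (adjusted p = 0.00073 and 0.0051, limma). The median gene of the list had 125 CPM in shControl and 76.4 in shPrmt1 cells, against 161 with vehicle, 149 with MS023 and 137 with GSK3368715.

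The p53 targets rose mainly in the knockdown. Of 20 measured genes, 10 rose and none fell in the knockdown and 5 rose and 1 fell with the inhibitors, with median changes of 0.31 and 0.07. Over all genes, 7.51% rose in the knockdown and 13.0% with the inhibitors. The knockdown was called above the inhibitors for 3.72% of all genes and for 6 of these targets, and below for none of them. That number was 3 without shControl 3, 4 without shControl 1, vehicle 1 or vehicle 3, and 11 with DESeq2 on the recovered reads, and 14 rose in the knockdown without shPrmt1 2. With the inhibitors, 2 rose without vehicle 3 and 1 with GSK3368715 alone. Leaving out vehicle 2 and GSK3368715 3, the libraries with few mitochondrial reads, 3 rose and 4 fell with the inhibitors. Btg2, an antiproliferative gene, had 82.8, 77.0 and 71.9 normalized counts in shControl and 187, 196 and 192 in shPrmt1 libraries. It had 716, 522 and 615 with vehicle, 588, 576 and 664 with MS023, and 671, 788 and 641 with GSK3368715. The shPrmt1 libraries were above their controls, and the inhibitor libraries spread through the vehicle range. The changes were 1.30 and 0.09 (difference 1.22, adjusted p = 0.00032, limma). Plk2, a stress-induced kinase, changed by 0.91 and -0.21 (difference 1.12, adjusted p = 0.00025, limma). Sesn1, a sestrin, rose in both, by 0.46 and 0.42, but its knockdown call was lost without shControl 1, 2 or 3 or shPrmt1 1 (adjusted p up to 0.139, limma).

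NRF2 targets, which defend against oxidants and electrophiles, rose mainly with the inhibitors. Of 18 measured genes, 3 rose and 1 fell in the knockdown and 13 rose and none fell with the inhibitors, with median changes of 0.07 and 0.26. Over all genes, 7.51% rose in the knockdown and 13.0% with the inhibitors. The difference was called for 6, with the inhibitors above in 5, a direction called for 2.95% of all genes. MS023 raised 13 and GSK3368715 raised 6, and the inhibitors were above for 7 genes with MS023 alone and for 1 with GSK3368715 alone. In the knockdown, 1 target rose without any 1 of shControl 1, 2 or 3, and 5 rose without shPrmt1 2. Nqo1, a quinone reductase, had 18.5, 23.04 and 21.01 normalized counts in shControl and 13.7, 17.0 and 16.3 in shPrmt1 libraries. It had 114, 131 and 121 with vehicle, 259, 223 and 262 with MS023, and 168, 201 and 164 with GSK3368715. The inhibitor libraries were above vehicle, MS023 highest, and the shPrmt1 libraries did not rise. Its change was 0.78 with the inhibitors and -0.39 (adjusted p = 0.35) in the knockdown, a difference of -1.17 (95% interval -1.62 to -0.72, adjusted p = 0.0036, limma). The direct comparison of the compounds was called for 3 targets, all higher with MS023. These were Ftl1, the ferritin light chain (0.52, adjusted p = 0.017, limma), the thioredoxin reductase gene Txnrd1 (0.28, adjusted p = 0.029) and Gclc (0.30, adjusted p = 0.037), of the first step of glutathione synthesis. Txnrd1 and Gclc also rose in the knockdown, by 0.52 and 0.35, though the call of Gclc was lost without any 1 of the shControl libraries (adjusted p up to 0.0724, limma).

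Of the single genes that differed most, several lay outside these lists. Ptpn22 (chromosome 3, 103859795 to 103912247), a phosphatase of lymphocyte signalling, had 172, 126 and 176 normalized counts in shControl and 465, 708 and 454 in shPrmt1 libraries. It had 896, 702 and 555 with vehicle, 434, 358 and 396 with MS023, and 548, 624 and 409 with GSK3368715. It rose in all shPrmt1 libraries, and the GSK3368715 libraries overlapped vehicle. Both changes were called, so Ptpn22 was also among the 38 genes called in opposite directions. The changes were 1.76 and -0.64 (difference 2.40, 95% interval 1.81 to 2.98, adjusted p = 0.00013, limma), and the inhibitor call was lost without vehicle 1 (adjusted p = 0.0564) and with GSK3368715 alone (adjusted p = 0.163). Lamb3, a laminin chain of basement membranes, had 6.16 to 13.3 normalized counts in shControl and 48.5 to 67.4 in shPrmt1 libraries. It had 32.2 to 46.4 with vehicle and 49.4 to 64.5 with the inhibitors. It rose by 2.47 in the knockdown, and its 0.47 with the inhibitors was not called (difference 2.00, adjusted p = 0.0034, limma). Ahcy, which hydrolyses S-adenosylhomocysteine, the product of methyltransferases that use S-adenosylmethionine, had a difference of -2.77 (adjusted p = 0.0039, limma) from changes of -2.36 and 0.40. Its reads are shared with 2 near-identical copies, and their sum changed by only -0.46 and -0.10, so the value of Ahcy alone is uncertain.

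Edn1 (chromosome 13, 42301476 to 42307990), which encodes the vasoconstrictor endothelin-1, fell with the inhibitors alone. It had 55.5, 54.7 and 50.9 normalized counts in shControl and 59.4, 52.1 and 54.1 in shPrmt1 libraries. It had 247, 269 and 303 with vehicle, 140.0, 128 and 127 with MS023, and 168, 205 and 162 with GSK3368715. The shPrmt1 and shControl libraries overlapped, and all inhibitor libraries were below vehicle. The changes were 0.04 and -0.83, a difference of 0.87 (95% interval 0.49 to 1.24, adjusted p = 0.0083, limma), which was not called with GSK3368715 alone (adjusted p = 0.0684). Cyp2u1, a fatty acid hydroxylase, likewise changed by -0.13 and -1.13 (difference 1.00, adjusted p = 0.006, limma).

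The cell cycle and growth lists differed in how many of their genes changed. The shares over all genes were 7.51% up and 7.17% down in the knockdown and 13.0% up and 14.0% down with the inhibitors. Of 48 genes of DNA replication and E2F targets, 1 rose and 7 fell in the knockdown, and 4 rose and 6 fell with the inhibitors. The difference was called for 5, with the knockdown above in 1 and below in 4. Of 28 genes of mitosis 6 fell with the inhibitors. Of 34 genes of the MYC network and ribosome biogenesis, 2 rose and 3 fell in the knockdown and 2 rose and 9 fell with the inhibitors. Myc itself had 0.15 (adjusted p = 0.15) in the knockdown and fell by 0.30 with the inhibitors (difference 0.45, adjusted p = 0.048, limma). Of 25 ATF4 and endoplasmic reticulum stress genes, 3 fell in the knockdown and 9 with the inhibitors. The early growth response gene Egr1 fell in both, by 0.82 and 0.48, and of 18 genes of ERK output and feedback 6 fell and 1 rose in the knockdown and 7 fell with the inhibitors. The ATF4, MYC and ERK genes that fell in either experiment thus stood above the share over all genes, by little for MYC in the knockdown. So did the replication genes that fell in the knockdown and the mitosis genes that fell with the inhibitors. Over the alternatives, 3 to 8 mitosis genes fell with the inhibitors, and 1 to 6 ATF4 and 1 to 6 MYC genes fell in the knockdown. With GSK3368715 alone, no ATF4 gene, 3 MYC genes and 1 ERK gene fell, and without vehicle 3 these numbers were 4, 6 and 3. In the knockdown, 2 ERK and 2 replication genes fell without shControl 1 or shControl 3, and 3 of each without shControl 2.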

How the data were processed

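RNA was sequenced from 15 CT26 libraries, 3 per group, which the series design describes as biological replicates. The authors quantified paired-end reads of 150 bp with Salmon (1.4.0, per the submitters' processing notes) on mm10 and deposited, per gene and library, a signal that is the count divided by the DESeq2 size factor, in 1 table per experiment (normalized counts here). All values (100%) were whole multiples of 1 constant per library within 0.01 of a read, which gave the reads per gene. The deposited comparison tables, which hold the authors' log2 fold changes and p-values, were not used.

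Genes that reached 10 normalized counts in 3 or more libraries of each table were compared on log2(normalized count + 1), which understates changes of genes with few reads. The knockdown, the mean of both inhibitors and each inhibitor against vehicle, and MS023 against GSK3368715 were tested by limma 3.58.1 (R 4.3.3). Tests were two-sided, by eBayes with a trend. P-values were adjusted after Benjamini and Hochberg, with a threshold of 0.05. The knockdown was adjusted over the 11485 genes past the filter in that experiment, and the inhibitor comparisons over the 13014 past it in theirs. The difference of the changes was a contrast of the group means in 1 limma fit of all 15 libraries, with 1 shared spread per gene. Its p-values were adjusted over the 11471 genes past the filter in both experiments. Genes called in both experiments agree or are opposite by the signs of their changes. Values of the experiments are to be compared only as changes, or as CPM computed here, since each experiment was normalized separately. Normalized counts are printed for both, but on different scales. Their totals per library were 20500895 to 21315720 in the knockdown and 58543181 to 60620863 in the inhibitor experiment.

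Named genes were, beside Prmt1, the 8 shared increases and 8 shared decreases whose smaller change was largest, the 8 opposite genes each way, the 6 up and 6 down with the largest difference for each experiment, and from each list up to 4 genes by difference and 3 by shared change. All but the list genes had to average at least 50 normalized counts in 1 group, with treated and control libraries apart, in the experiment or experiments that chose them. The rule asked this of list genes too, but it was not applied to them. Not all of them are described, and some results are not reported here. The genes, lists and tests were chosen with earlier results of these data known. Coordinates are from GENCODE M21 (mm10), where 11460 genes had their ID. Copies were searched in its transcripts at 95% identity over 30% of the length. Whether counting used strand is not given in the sources used here. Exons of Poln and Haus3 on 1 strand have 108 bp in common.

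The alternatives tried were other pseudocounts (0.5 and 5), other filters (none and 50), the same upper quartile or total in every library, an inhibitor table rescaled to the knockdown depth, eBayes without a trend, a separate spread for each experiment, the replicate number as a block, edgeR 4.0.16 and DESeq2 1.42.0 on the recovered reads, an absolute log2 change of at least 1, each inhibitor alone and each library left out. The fit without vehicle 2 and GSK3368715 3 was added after the data were seen. In simulated data of 11463 genes, the difference of changes recovered 191 of 199 changed genes (96%) among 207 called. Every changed gene was set to an absolute log2 difference of 1, and every gene to 1 fixed spread beyond that of counting. Recovery of smaller differences or at a larger spread was not tested. Of the 765 differences called in the data, 129 reached an absolute log2 value of 1.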

Additional observations from a re-analysis of the deposited data

How the results depend on the processing

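The numbers of genes called stayed within 1.5 times those reported under most alternatives. Opposite genes numbered 20 with eBayes without a trend and 58 with DESeq2, which called a difference for 1180 genes. An absolute log2 change of at least 1 left 274 knockdown genes, 121 inhibitor genes, 129 with a difference, 47 that agreed and 0 opposite genes (38 without that minimum by limma, 38 by edgeR). With GSK3368715 alone, 1189 inhibitor genes, 471 differences, 483 shared and 13 opposite genes were called. Leaving out 1 library in turn gave 652 to 2472 knockdown genes, 1976 to 2998 inhibitor genes, 449 to 900.0 differences, 401 to 1121 shared genes and 11 to 60 opposite genes. Same-numbered libraries correlated by 0.07 to 0.13 in the knockdown and by -0.13 to 0.13 in the inhibitor experiment, so the numbers were not taken to pair them, although each knockdown library correlated best with its own number. With the replicate block 2670.0 knockdown genes, 2720.0 inhibitor genes, 951 differences, 1059 shared and 55 opposite genes were called. Without vehicle 2 and GSK3368715 3, an alternative chosen after the data were seen, 2634 inhibitor genes, 633 differences, 750.0 shared and 45 opposite genes were called. Of 354 called changes and differences of named genes, 227 kept their call under every alternative without a minimum change and 0 reversed, and 121 had an absolute log2 value of at least 1. The causes of these shifts were not tested. With 3 libraries per group, the small knockdown changes of many opposite genes lie near the threshold.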
